A study of Mus musculus with 12 samples.

Results

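The 1155 promoters described here are start sites that a Jmjd2c peak covers and that the overlapping Jmjd2a peak misses, in mouse progenitors transformed by the MLL-AF9 fusion. Each is a pair of 1 Jmjd2a and 1 Jmjd2c peak that overlap by at least 1 bp and overlap no other peak of the opposite list. In 2 of the 1155 the Jmjd2c peak covers another start than the one the Jmjd2a distance is measured from, and in 1153 both refer to the same start. The pairs were chosen by the deposited distance to the nearest transcription start, which is 0 for the Jmjd2c peak and 1 to 1000 bp for the Jmjd2a peak. They are drawn from 8977 Jmjd2a and 10521 Jmjd2c peaks, which form 5665 pairs of 1 and 1. In 4844 of those pairs the Jmjd2c peak covers a start, and the members make up 23.8% of them. In 3683 further pairs both peaks cover the start, and these are the comparison set below. Because the rule uses positions, every position and width given here is a description and carries no test.

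The cells, labelled L-GMP, come from a C57BL/6 background. Their Jmjd2a, Jmjd2b and Jmjd2c alleles are floxed, and CreERT2, a tamoxifen-activated recombinase, is expressed from the Rosa26 locus. They grew in RPMI with 20% serum and 10 ng/ml interleukin-3, and were left untreated or received 500 nM 4-hydroxytamoxifen (OHT) for 96 h to delete the floxed genes. The 12 chromatin immunoprecipitation libraries make 8 groups, with 1 Jmjd2a and 1 Jmjd2c library per condition and 2 libraries per condition for trimethylated lysine 9 and for trimethylated lysine 36 of histone H3. All groups, the untreated ones included, share the fusion, the floxed alleles and CreERT2, and there are no cells without them. The sources used here do not give the number of mice or clones that the cells came from. The peak lists name no library and hold no height, score or value per library, so depth is unknown, conditions could not be compared and no value has a replicate error. Expression was not measured in the files used, so the labelled cell type could not be checked against its markers.

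Jmjd2a (Kdm4a) and Jmjd2c (Kdm4c) belong to one family of histone demethylases, enzymes that take methyl groups off lysine 9 and lysine 36 of histone H3. Both carry a catalytic Jumonji domain and, near the carboxyl end, a pair of Tudor domains that read methylated histone tails, including the trimethylated lysine 4 found around active starts. In mammals most promoters of widely expressed genes lie in CpG islands, where the nucleosome just downstream of the start is usually rich in this mark and the start itself is often poor in nucleosomes.

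The promoters below show the layout in letters. Sequences are from RefSeq on GRCm38.p6, run from 250 bases before to 50 after a start, and are written 5′ to 3′ on the gene's strand. Capitals mark the bases under the Jmjd2a peak. The first 3 are the members with the widest downstream Jmjd2a peaks that have an entry at the same start, and in each of them capitals fill the end of the sequence, inside the gene.
Rap2b, chr3:61364257-61364556, + strand: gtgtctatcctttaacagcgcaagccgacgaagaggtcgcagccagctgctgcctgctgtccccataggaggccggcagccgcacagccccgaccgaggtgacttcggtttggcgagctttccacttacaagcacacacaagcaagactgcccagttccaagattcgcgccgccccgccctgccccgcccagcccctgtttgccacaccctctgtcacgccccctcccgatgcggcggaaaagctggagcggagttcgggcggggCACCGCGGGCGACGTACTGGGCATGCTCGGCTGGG
Jmy, chr13:93499759-93500058, - strand: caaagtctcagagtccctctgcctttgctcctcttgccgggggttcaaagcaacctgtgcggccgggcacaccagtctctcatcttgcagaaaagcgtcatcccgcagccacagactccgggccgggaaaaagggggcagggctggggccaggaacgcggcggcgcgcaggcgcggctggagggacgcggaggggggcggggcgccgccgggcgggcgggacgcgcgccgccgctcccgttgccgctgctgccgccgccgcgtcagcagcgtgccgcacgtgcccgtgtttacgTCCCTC
Tsc22d3, chrX:140600473-140600772, - strand: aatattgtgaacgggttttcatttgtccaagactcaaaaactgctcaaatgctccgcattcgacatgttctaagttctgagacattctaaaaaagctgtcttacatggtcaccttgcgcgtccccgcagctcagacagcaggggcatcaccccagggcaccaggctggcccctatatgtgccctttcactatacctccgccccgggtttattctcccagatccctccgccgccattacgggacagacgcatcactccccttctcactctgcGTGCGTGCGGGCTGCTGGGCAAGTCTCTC
The next 3 have the widest upstream Jmjd2a peaks, so that capitals stand at the beginning and stop short of the start. In Fbxl19 the gap of 290 bp is longer than the 250 bases shown, and no base is in capitals. RefSeq draws this gene from 127743887, so its Jmjd2a peak is upstream only of the start used.
Fbxl19, chr7:127746525-127746824, + strand: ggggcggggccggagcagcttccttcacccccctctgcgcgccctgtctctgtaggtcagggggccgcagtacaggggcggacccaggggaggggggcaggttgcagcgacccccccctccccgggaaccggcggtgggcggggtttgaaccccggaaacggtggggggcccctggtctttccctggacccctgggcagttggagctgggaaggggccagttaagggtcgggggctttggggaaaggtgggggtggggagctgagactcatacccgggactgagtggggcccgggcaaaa
Bmpr2, chr1:59764029-59764328, + strand: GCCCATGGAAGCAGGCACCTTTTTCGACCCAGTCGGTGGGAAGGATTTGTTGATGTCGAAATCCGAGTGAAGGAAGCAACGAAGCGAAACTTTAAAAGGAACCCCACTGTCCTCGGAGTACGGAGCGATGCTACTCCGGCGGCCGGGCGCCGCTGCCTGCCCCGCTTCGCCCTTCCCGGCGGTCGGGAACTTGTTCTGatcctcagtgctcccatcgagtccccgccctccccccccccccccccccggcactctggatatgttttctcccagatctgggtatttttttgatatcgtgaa
Rps21, chr2:180257129-180257428, + strand: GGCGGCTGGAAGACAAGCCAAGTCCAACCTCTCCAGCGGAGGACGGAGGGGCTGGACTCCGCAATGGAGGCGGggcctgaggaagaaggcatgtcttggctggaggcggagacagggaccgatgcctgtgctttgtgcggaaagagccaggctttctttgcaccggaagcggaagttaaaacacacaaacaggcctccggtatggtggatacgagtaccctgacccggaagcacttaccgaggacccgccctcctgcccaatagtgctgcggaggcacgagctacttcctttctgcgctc
The last pair are genes of histone demethylases, of which only Kdm4c encodes a protein profiled here, Jmjd2c. Kdm1a is shown because it is among the members with the smallest gap.
Kdm1a, chr4:136602674-136602973, - strand: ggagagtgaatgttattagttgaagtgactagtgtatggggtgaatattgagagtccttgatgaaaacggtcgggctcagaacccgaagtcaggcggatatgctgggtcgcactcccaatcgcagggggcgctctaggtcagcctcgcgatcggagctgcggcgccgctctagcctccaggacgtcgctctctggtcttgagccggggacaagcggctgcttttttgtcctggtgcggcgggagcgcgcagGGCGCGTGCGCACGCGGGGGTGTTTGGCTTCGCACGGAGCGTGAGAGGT
Kdm4c, chr4:74251629-74251928, + strand: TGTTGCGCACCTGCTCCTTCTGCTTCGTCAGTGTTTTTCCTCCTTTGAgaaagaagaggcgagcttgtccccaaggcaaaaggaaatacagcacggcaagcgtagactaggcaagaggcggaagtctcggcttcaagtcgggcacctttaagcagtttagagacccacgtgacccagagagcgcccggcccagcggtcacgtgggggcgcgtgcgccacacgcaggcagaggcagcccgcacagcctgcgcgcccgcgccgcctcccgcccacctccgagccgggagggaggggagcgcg
The Jmjd2c peak covers all 300 bases of 7 of these 8 sequences, and 212 bases of Tsc22d3. In Kdm1a the last 49 bases lie under the Jmjd2a peak, which begins 1 bp past the start. In Kdm4c the first 48 bases do, and the peak ends 203 bp before the start.

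The gap between the start and the near edge of the Jmjd2a peak was short in most members. Its median was 97 bp (quartiles 39 and 190, n = 1155 pairs), and it was at most 200 bp in 884 members (76.5%) and at most 500 bp in 1097 (95%). The gap was 1 bp in 9 members, among them Kdm1a and Kdm2a, both histone demethylases, and Cep131, a centrosome protein. At the far end stood Fosb, an AP-1 transcription factor, at 930 bp, Ubap2 at 926 bp and Crebbp, the CBP histone acetyltransferase, at 898 bp. Gaps are measured to the nearest deposited start, which can lie inside the gene as RefSeq draws it. On the − strand, the start used for Crebbp was 4213404 and the gene is drawn to 4213957. For Kdm2a these positions were 4397077 and 4398721. Outside the limit lay 6 pairs, of which Dcaf8 at 1006 bp, Phgdh, an enzyme of serine synthesis, at 1036 bp and Prpf4b, a kinase of the spliceosome, at 1051 bp were nearest. The opposite layout, with Jmjd2c 1 to 1000 bp off the start and Jmjd2a over it, was found in 67 of the 3750 pairs whose Jmjd2a peak covers a start (1.79%, exact 95% interval 1.39 to 2.26). Exact (Clopper-Pearson) intervals here and below cover counting error over peaks, which are not replicates of a condition.

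**Figure D1:**
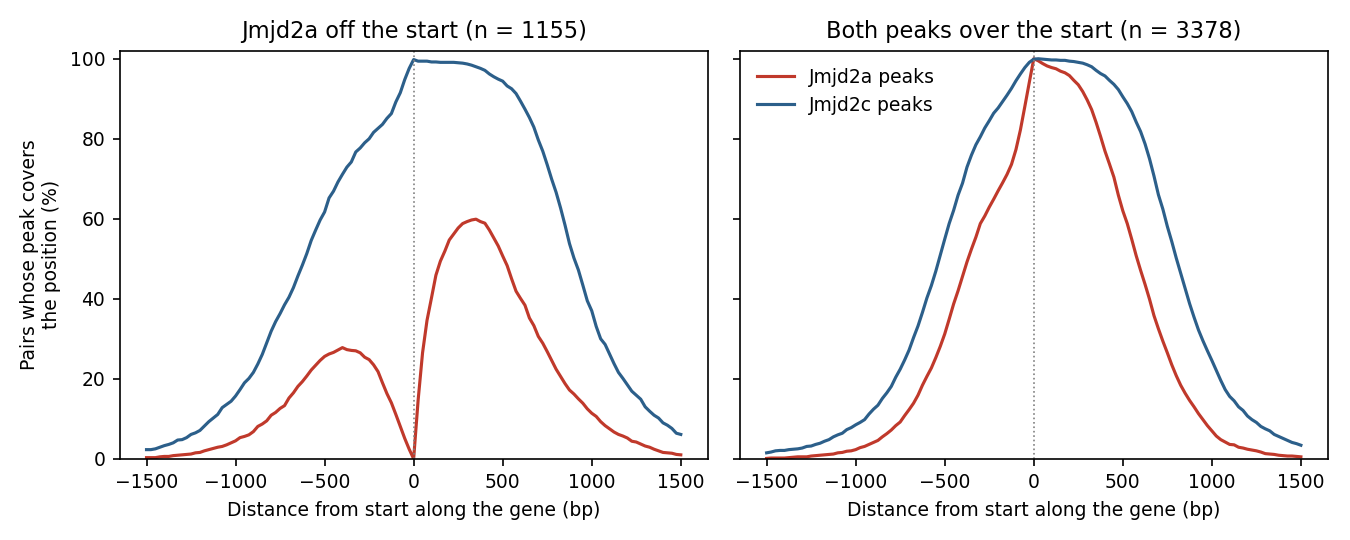
Share of pairs (y axis, %) whose Jmjd2a (red) or Jmjd2c (blue) peak covers each position along the gene (x axis, bp from the start, positive downstream), for the 1155 members and for the 3378 of the 3683 comparison pairs whose starts lie on 1 strand. The Jmjd2a curve of the members has 1 lobe on each side of a start that the rule leaves uncovered, 59.9% at 350 bp downstream and 27.1% at 350 bp upstream, while the Jmjd2c curve is broad and covers it.

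In 779 members (67.4%, 64.7 to 70.1) the Jmjd2a peak lay downstream, on the transcribed side of the start, and in 376 (32.6%) upstream. The side is set by the strand of the nearest start alone. A downstream peak can thus lie beyond the end of a short gene, as at Mir5627, 61 bp long with a gap of 87 bp. Over all 2287 Jmjd2a peaks 1 to 1000 bp off a start of known strand, the members included, the downstream share was 59.2%. It was 49.2% (44.0 to 54.4) for 370 such peaks that overlap no Jmjd2c peak, and 51.6% (48.0 to 55.2) for 762 that overlap one in another way than the members. The sets are not alike, since a member must overlap a Jmjd2c peak over a start. Those peaks reached a median 902 bp downstream and 613 bp upstream, so the rule itself can favour the downstream side. In the comparison pairs on 1 strand the Jmjd2a centre also lay downstream, at a median 126.8 bp. The downstream share varied with the gap: 83.8% of the 365 members with a gap of up to 50 bp were downstream, 69.6% of 227 between 51 and 100 bp, 57.5% of 292 between 101 and 200 bp, 53.1% of 213 between 201 and 500 bp and 58.6% of 58 beyond 500 bp. Gaps were shorter downstream, with a median of 72 bp against 151 bp upstream. Downstream peaks had their centre a median 389 bp past the start, and upstream peaks at -424.2 bp, that is, before the start.

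**Figure D2:**
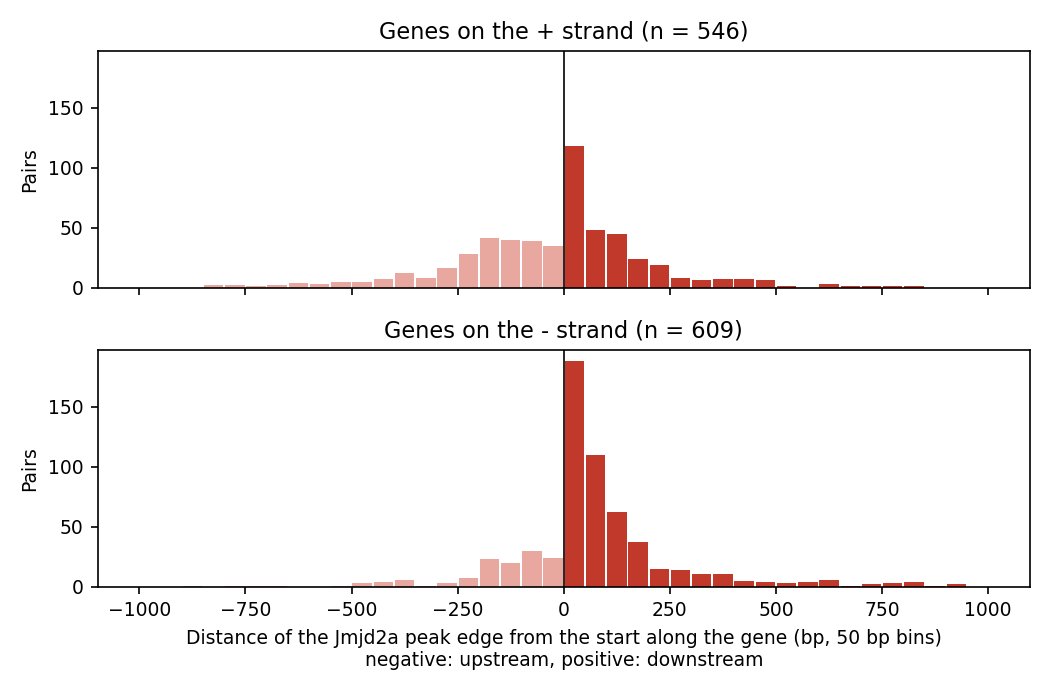
Number of members (y axis) by the distance of the near edge of the Jmjd2a peak from the start along the gene (x axis, bp, bins of 50 bp; dark bars downstream, light bars upstream), for genes on the + strand (n = 546, upper panel) and on the − strand (n = 609, lower panel). The bin next to the start on the downstream side is the tallest in both panels, with 118 and 188 pairs, and the upstream bars are fewer on the − strand.

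The downstream share differed by the strand of the gene. It was 54.2% (49.9 to 58.5) of the 546 members on the + strand and 79.3% (75.9 to 82.5) of the 609 on the − strand. With gaps of up to 50 bp it was 77.1% on the + strand and 88.7% on the − strand. From 101 bp on it was 46%, 41.1% and 29.6% in the 3 remaining distance classes of the + strand and 69.7%, 71.4% and 83.9% in those of the − strand, so that the fall with distance is seen on the + strand and not throughout on the − strand. A downstream peak lies at lower genome coordinates than the start on the − strand and at higher ones on the + strand. Thus 79.3% of members on the − strand had the Jmjd2a peak lower, while 54.2% on the + strand had it higher. With both strands pooled, the Jmjd2a peak sat at lower coordinates than the start in 733 of 1155 members (63.5%, 60.6 to 66.2). This lean to lower coordinates is not particular to shared promoters, being 64.2% for unshared Jmjd2a peaks near a start and 60.1% for all 2302 such Jmjd2a peaks. Off-start Jmjd2c peaks leaned the other way, with 36.9% of 811 at lower coordinates. Over all start sites that the authors list as bound by both proteins, the part of the peak centre's offset that does not follow the gene's direction was -58.0 bp for Jmjd2a and 12.5 bp for Jmjd2c. With every Jmjd2a peak moved up by 58 bp and distances recomputed, 1135 pairs met the rule, of which 898 were members before. The downstream share was then 70.0% on the + strand and 65.5% on the − strand, but of the pairs with a known strand the + strand held 707 and the − strand 426. The downstream share over both strands was thus 67.4% without the move and 68.3% with it, while which promoters count as members and the share on each strand are sensitive to a displacement far smaller than a peak. The origin of the lean was not tested.

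**Figure D3:**
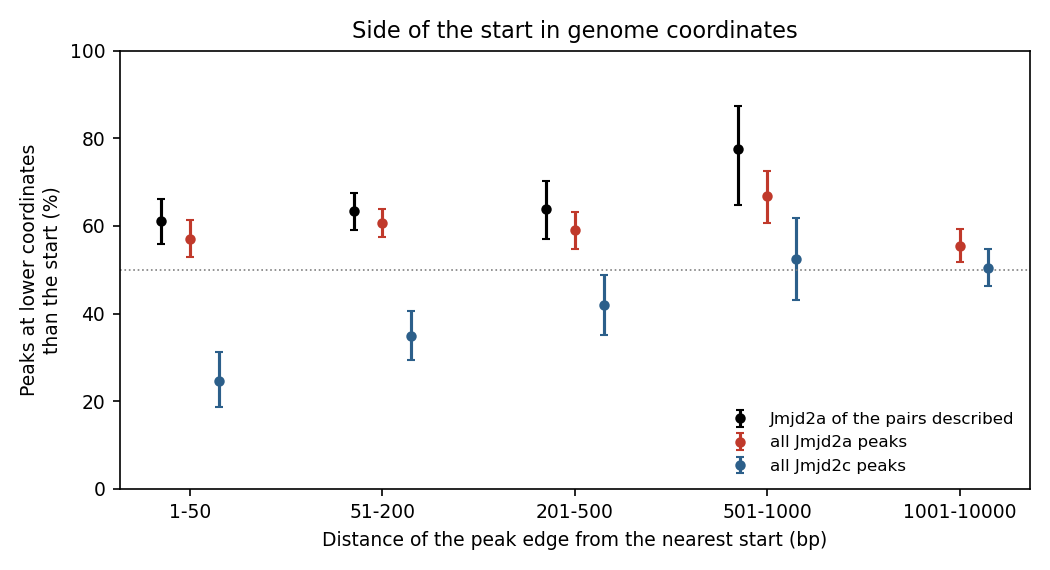
Share of peaks (y axis, %, with exact 95% intervals) that lie at lower genome coordinates than the nearest start, by the distance of the peak edge (x axis, bp), for the Jmjd2a peaks of the members (black), all Jmjd2a peaks (red) and all Jmjd2c peaks (blue). Jmjd2a peaks are above 50% in each class, 61.1% to 77.6% for the members, and Jmjd2c peaks go from 24.6% within 50 bp to 52.5% at 501 to 1000 bp and 50.4% beyond.

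The members combined a narrow Jmjd2a peak with a wide Jmjd2c peak. The Jmjd2a peak had a median width of 539 bp (quartiles 413 and 696), against 965 bp in pairs with both peaks over the start, 706 bp over all Jmjd2a peaks and 508 bp in unshared peaks off a start. The Jmjd2c peak had a median width of 1536 bp (quartiles 1219 and 1880), against 1380 bp in the comparison pairs and 1302 bp over all Jmjd2c peaks. The Jmjd2a peak lay wholly inside the Jmjd2c peak in 872 members (75.5%), and in 59.2% of the comparison pairs. Width is tied to the rule, since a narrow peak is less likely to reach any given base. With the pairs split into 4 classes of equal size by Jmjd2a width, the share with Jmjd2a off the start was 56.1%, 27.2%, 9.17% and 2.81% from the narrowest to the widest. Split by Jmjd2c width it was higher in the wider classes, 19.3%, 18.2%, 25.9% and 32%.

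The Jmjd2c peak itself extended unevenly around the start, and its reach differed by the side of the Jmjd2a peak. The rule sets part of this difference. A Jmjd2c peak must cover a start and also reach the Jmjd2a peak, on whichever side that lies. In members with Jmjd2a downstream, Jmjd2c reached a median 494 bp upstream and 917 bp downstream of the start. In members with Jmjd2a upstream it reached 793 bp upstream and 863 bp downstream, and it was wider, 1676 bp against 1455 bp. Jmjd2c reached farther into the gene than before it in 82.5% (79.7 to 85.1) of the first group and in 63.8% (58.7 to 68.7) of the second. A downstream Jmjd2a centre lay a median 63.5% of the way along the Jmjd2c peak from its upstream edge, and an upstream one 20.3%. The downstream Jmjd2a peaks were thus nearer the middle of the Jmjd2c peak than the upstream ones, which sat in its outer part.

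The widest pairs show both layouts. Fbxl19, a CpG-island-binding F-box protein, had the widest Jmjd2a peak of the members, 2296 bp at chr7:127744190-127746485, ending 290 bp upstream of the start within a 3043 bp Jmjd2c peak. That start lies inside the gene, which RefSeq draws from 127743887, so the peak is upstream of the start used but within the drawn gene. Rap2b, a small GTPase, had a Jmjd2a peak of 1683 bp that began 15 bp inside the gene, under a Jmjd2c peak of 3716 bp. Both Jmy, an actin nucleator and p300 cofactor, and Tsc22d3, the glucocorticoid-induced protein GILZ, carried downstream Jmjd2a peaks, of 1663 and 1638 bp. Bmpr2, a receptor for bone morphogenetic proteins, had a 1550 bp peak that ended 53 bp upstream. The widest Jmjd2c peak of the set, 4165 bp at chr11:3288437-3292601, covered the start of Patz1, a zinc finger repressor, with a Jmjd2a peak of 605 bp ending 150 bp upstream. At Wrap53, a telomerase and Cajal body protein, the 3807 bp Jmjd2c peak also covered the start of the neighbouring gene, and the 421 bp Jmjd2a peak began 2 bp past the Wrap53 start.

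Annotation under the Jmjd2a peak, as deposited from RefSeq, followed its side. Of the 779 downstream peaks, 92.6% touched an intron, 85.2% an exon, 78.0% a 5′ untranslated region and 67.5% coding sequence. Of the 376 upstream peaks, 325 (86.4%) carried no label other than start or promoter, 11.4% touched an intron and 5.32% an exon. The promoter label was on 21.8% of them. The deposited start label is also given to peaks that miss the start, as at Grb2. Only starts that the authors list as bound by both proteins were searched for a start on the opposite strand. Such a start lay within 1000 bp in 137 members (11.9%), 15.4% of the downstream and 4.52% of the upstream ones. This contrast is tied to the use of the nearest start. A peak past the start of a diverging neighbour counts as downstream of that neighbour. A Jmjd2a peak that missed the start named in the files covered another RefSeq start in 58 of the 1123 members not on chromosome 18. In 38 of the 58 it was a start of the same gene. Chromosome 18, with 32 members, was left out because no RefSeq promoters were at hand for it. The Jmjd2c peak covered at least 2 starts in 192 members (16.6%) and in 18.4% of the comparison pairs. Genes of the members were protein coding in 96.2% of 1150 matched cases, against 96.9%, and had a median length of 23928 bp, against 27611 bp. By chromosome the share of pairs with Jmjd2a off the start ran from 18% on chromosomes 6 and 13 to 30.5% on chromosome 19, apart from chromosome Y with 1 of 2 pairs.

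In base composition these were CpG-rich promoters like those where both peaks cover the start. A RefSeq promoter within 50 bp of the start was found for 871 members, 901 promoters in all, and for 2734 comparison pairs with 3161 promoters. The median GC content was 62.7% (quartiles 57.7 and 68.3) in the members, 63.0% in the comparison pairs and 56.3% over all 21263 protein-coding promoters of the table. The median number of CpG dinucleotides per 300 bases was 24, 24 and 13 in the same order, and the median ratio of observed to expected CpG was 0.82, 0.82 and 0.57. Median GC content was 62.3% in the downstream members and 63.3% in the upstream ones.

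Short strings known as binding motifs were counted on both strands of the same 300 bases, a match being a match of letters and not a bound site. The TATA box string TATAAA was in 4.55% of the members' promoters, 4.68% of the comparison promoters, 12.6% of all protein-coding promoters and 13.6% of all 32851 promoters. The GC box GGGCGG, bound by Sp1 and its relatives, was in 73.8%, 69.9%, 46.2% and 35.7% in that order. The ETS string CCGGAAG was in 23.5%, 23.4%, 11.6% and 8.86%, and CCAAT, the NF-Y box, in 42.0%, 38.0%, 38.2% and 37.4%. For the E-box CACGTG, which Myc with Max can bind, the shares were 9.99%, 11.7%, 7.84% and 7.15%. Those of the cyclic-AMP response element TGACGTCA were 3.88%, 4.21%, 2.23% and 1.79%, and those of the NRF1 string GCATGCGC were 7.99%, 6.64%, 3.52% and 2.71%. None of these strings contains another. The members thus resembled the comparison promoters within a few percentage points for each string, and both sets differed from all promoters mainly through the GC-rich strings and the TATA string.

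The 1155 genes named at these starts were counted against 2 backgrounds. They were 10.8% of the 10696 genes with a named start near any peak of either list, and 22.5% of the 5142 genes of pairs whose Jmjd2c peak covers a start. Of 22 gene lists with a gene in both backgrounds, 12 had a share of members above the background, the same number under each. Counts in single lists are small and their intervals wide.

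**Figure D4:**
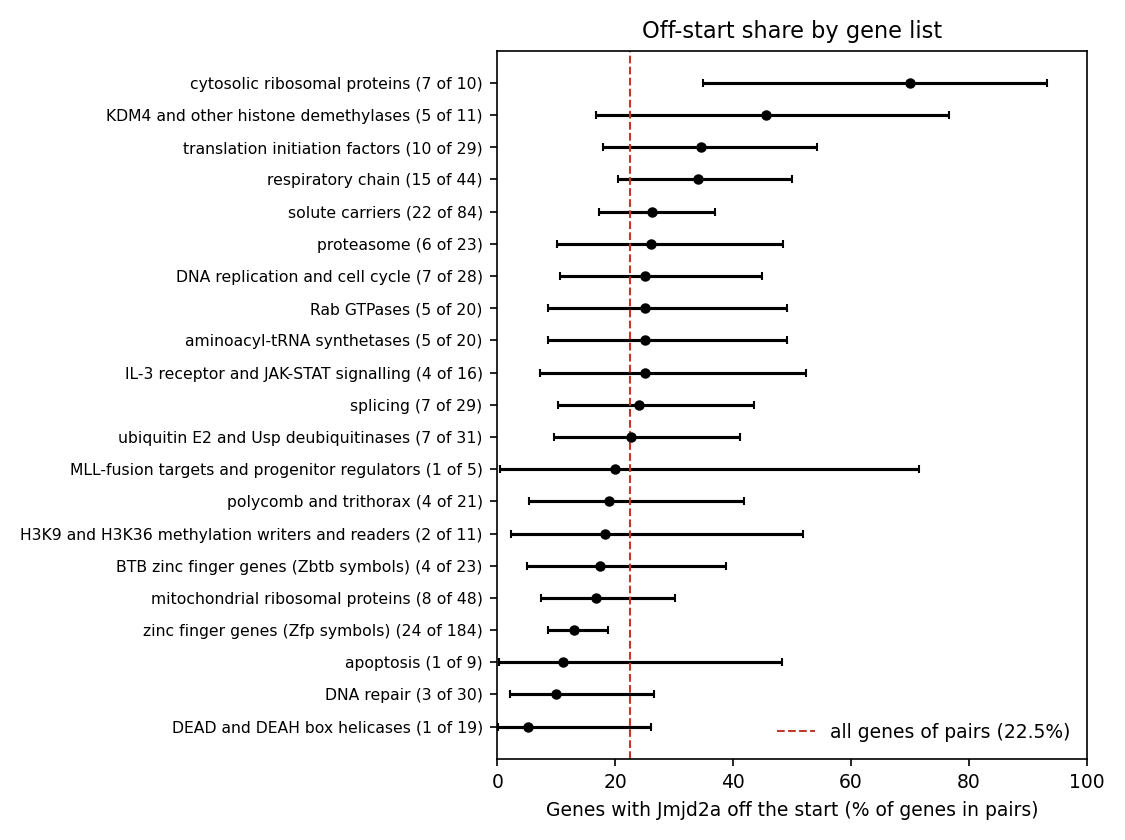
Share of genes with Jmjd2a off the start (x axis, %) among the genes of each list that are in pairs with Jmjd2c over a start, with exact 95% intervals; numbers in brackets give members and genes in pairs. The dashed line is the 22.5% over all genes of pairs, and most intervals include it, while that of the cytosolic ribosomal proteins lies above it and that of the Zfp zinc finger genes below it.

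Among chromatin regulators, 5 of the 11 genes in pairs from the histone demethylase list were members (45.5%, 16.7 to 76.6). Kdm1a and Kdm1b, which remove methyl groups from lysine 4, had Jmjd2a peaks of 996 and 933 bp, 1 and 278 bp inside the gene. Kdm2a, a lysine 36 demethylase that binds unmethylated CpG, had a 349 bp peak 1 bp inside, and Jmjd6, a Jumonji hydroxylase, a 325 bp peak 198 bp inside. Jmjd6 is counted as a gene of the list, and demethylase activity is not shown for it here. Kdm4c, which encodes Jmjd2c and is one of the floxed genes, had a 345 bp Jmjd2a peak at chr4:74251332-74251676, 203 bp upstream of the start, inside a 2087 bp Jmjd2c peak. That start at 74251879 lies inside the gene as the RefSeq table draws it from 74242497, so the same peak is annotated as intron and coding sequence of a longer transcript. With the Jmjd2a list moved by 58 bp, 3 genes of the demethylase list met the rule. Of 11 genes in pairs from the list of writers and readers of lysine 9 and lysine 36 methylation, 2 were members. They are Cbx3, the heterochromatin protein HP1 gamma, and Setd3, a SET-domain methyltransferase. Setd3 is counted as a gene of the list, and its activity on these lysines is not shown here. Of 21 polycomb and trithorax genes in pairs 4 were members (19.0%), among them Bmi1 and Rnf2, core subunits of polycomb repressive complex 1. The Bmi1 peak was 1408 bp wide and began 49 bp inside the gene, at chr2:18677067-18678474. Rnf2 had a 794 bp peak with a gap of 3 bp, and Rybp, another subunit of such complexes, a 768 bp peak 172 bp upstream. After the move by 58 bp, 2 polycomb and trithorax genes and 1 gene of the writers and readers list met the rule.

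Interleukin-3 receptor and JAK-STAT signalling, which relays the cytokine in the medium, had a share near the background, 4 of 16 genes in pairs (25%). Csf2ra encodes the alpha chain of the receptor for GM-CSF. Its 311 bp Jmjd2a peak at chr19:61228491-61228801 began 73 bp upstream of the start and overlapped the Jmjd2c peak by 79 bp. The tyrosine kinase gene Jak1 had a 901 bp peak 27 bp inside the gene, and Pim2, a serine/threonine kinase gene, a 446 bp peak 32 bp inside. Grb2, an adaptor of receptor kinases, had a 526 bp peak 134 bp upstream. Myc was the only member among 5 genes in pairs from the list of MLL-fusion targets and progenitor regulators. Its 432 bp Jmjd2a peak at chr15:61984853-61985284 ended 57 bp upstream of the start, inside a Jmjd2c peak that reached 1364 bp upstream and only 86 bp downstream. After the move by 58 bp no gene of this list met the rule, Myc included, while 4 of the signalling list did. In the cell-cycle list 7 of 28 genes in pairs were members (25%), and 5 after the move. Among them Ccna2, cyclin A2, had an 835 bp peak 10 bp inside the gene, and Ccne1, cyclin E1, a 625 bp peak 39 bp inside, while at Cdkn1b, the inhibitor p27, a 558 bp peak ended 100 bp upstream.

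The protein synthesis genes gave both high and low shares. Of the 10 cytosolic ribosomal protein genes in pairs 7 were members (70.0%, 34.8 to 93.3), and 7 of 46 near any peak (15.2%). In 6 of the 7 the Jmjd2a peak was upstream, against 32.6% of all members: Rps21 at 178 bp, Rpl29 at 103 bp, Rpl22 at 75 bp, Rps7 at 37 bp, Rpl30 at 31 bp and Rps26 at 26 bp. Only Rps13 had it downstream, at 89 bp. At Rpl22 the upstream peak is also annotated as intron and coding sequence, and RefSeq draws the gene from 152324436, before the peak. The peaks of the 7 genes were 500 to 1300 bp wide, the widest at Rps21. With the Jmjd2a list moved by 58 bp, 8 ribosomal protein genes met the rule, 7 of them upstream. Translation initiation factors gave 10 members of 29 in pairs (34.5%), 5 on each side. They include both copies of the gamma subunit of eIF2, Eif2s3x on chromosome X and Eif2s3y on chromosome Y, with Jmjd2a peaks 697 and 536 bp upstream; reads of such closely related genes may be hard to assign. Mitochondrial ribosomal protein genes gave 8 of 48 (16.7%), 7 of them downstream, as at Mrpl17, with a 651 bp peak 710 bp inside the gene. The 5 members among 20 aminoacyl-tRNA synthetase genes were all downstream, with Sars, the seryl-tRNA synthetase, at 792 bp. After the move by 58 bp the initiation factor, mitochondrial ribosomal and synthetase lists had 12, 11 and 4 genes that met the rule.

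Respiratory chain genes gave 15 members of 44 in pairs (34.1%, 20.5 to 49.9), 6 downstream and 9 upstream, and 15 members after the move by 58 bp. The widest of their Jmjd2a peaks was at Cox6c, a subunit of cytochrome c oxidase, 1176 bp wide and 120 bp inside the gene. The proteasome list gave 6 of 23 (26.1%), among them Psmb10, an immunoproteasome subunit, with a 1150 bp peak 191 bp inside. Solute carriers gave 22 of 84 (26.2%), splicing factors 7 of 29 (24.1%), Rab GTPases 5 of 20 (25%), and ubiquitin-conjugating and Usp genes 7 of 31 (22.6%), all near the background. Rab5a, a regulator of early endosomes, had a 675 bp peak 558 bp upstream.

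Below the background lay the zinc finger genes, and with wide intervals some smaller lists. Of 184 Zfp genes in pairs 24 were members (13.0%, 8.54 to 18.8), 14 downstream and 10 upstream, with a median gap of 55 bp, and 22 Zfp genes met the rule after the move by 58 bp. The intervals of the other lists include the 22.5% background. DNA repair genes gave 3 of 30 (10.0%, 2.11 to 26.5), and 5 after the move. DEAD and DEAH box helicases gave 1 of 19 (5.26%, 0.133 to 26.0) and apoptosis genes 1 of 9 (0.281 to 48.2), Diablo, a mitochondrial protein that blocks inhibitors of caspases. The 4 members among 23 Zbtb genes (4.95 to 38.8) were all downstream, the farthest being Zbtb10 at 635 bp, and after the move 6 met the rule, 5 of them downstream. Of the granulocyte and macrophage genes 2 lay near any peak and none was a member, and of the markers of other tissues 1 lay near a peak and none was a member.

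**Figure D5:**
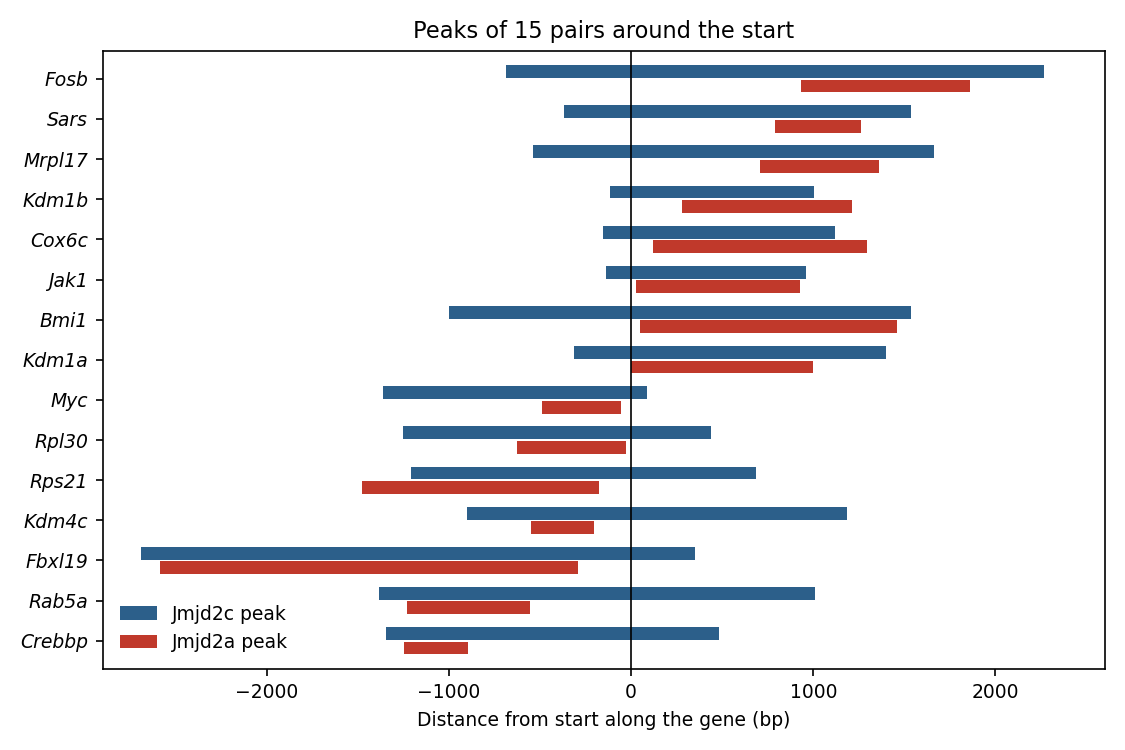
Extent of the Jmjd2c peak (blue) and of the Jmjd2a peak (red) of 15 members named in the text, one gene per row, along the gene (x axis, bp from the start used, positive downstream, with a vertical line at that start). From Fosb with a gap of 930 bp downstream to Crebbp with 898 bp upstream, the blue bar crosses the line in each row and the red bar does not.

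Far-off members differ in how much of the Jmjd2c peak they share. At Fosb the 931 bp Jmjd2a peak at chr7:19308185-19309115 lay wholly within the 2954 bp Jmjd2c peak, over intron and coding sequence. At Ubap2, a ubiquitin-binding protein, the 560 bp Jmjd2a peak overlapped the 1783 bp Jmjd2c peak by only 8 bp. At Crebbp the 350 bp Jmjd2a peak at chr16:4214302-4214651 lay within the 1832 bp Jmjd2c peak, before the start. Minos1, a subunit of the mitochondrial cristae complex MICOS, had a 352 bp peak 859 bp inside the gene, 180 bp of it shared.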

How the data were processed

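Per the file headers, the authors deposited the first and last position of each Jmjd2a and Jmjd2c peak, the RefSeq features under it, its nearest start and a distance in bp, and a table of 6940 windows of 1 kb to each side of starts bound by both proteins. No column holds a count, height or score, and 0 columns of per-sample values were left unused. Bowtie 0.12.7, SAMtools and bedtools 2.25.0 on mm10 are named in the submitters' processing notes. Neither the peak caller and its threshold nor the libraries behind each list are named in the sources used here. A shallow library or a strict threshold can narrow peaks, so the gap to a start depends on settings that are unknown.

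Positions were read as counting from 0 with an open end and are printed counting from 1. The strand came from the deposited windows, and matched that of the gene table for 932 of 932 members found there. Recomputed distances equalled the deposited ones for 8974 of 8977 Jmjd2a peaks. Jmjd2a peaks were moved in steps of 10 bp for the displacement check, which was chosen after seeing the data. Promoters came from a RefSeq table on GRCm38.p6, whose chromosomes are those of mm10. No test was run. Shares carry exact 95% intervals, and the overlap step was tested on simulated data. The members and the 23 gene lists were chosen with earlier results of these data known. Named genes are the 6 members with the largest and the 6 with the smallest gap, the 8 widest of each protein, up to 4 per list by Jmjd2a width and the 3 nearest pairs outside the limit; other genes named were chosen after their values were seen. Peak width stood in for a score. One symbol was written as a date and is not named. Alternatives were another overlap, other distance limits, pairs with several partners, the wider 50% of peaks and other starts, promoters and backgrounds. Software was pandas 2.3.3 and numpy 2.4.6 under Python 3.11.15, with scipy 1.17.1 for intervals and matplotlib 3.10.9 for plots.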

Additional observations from a re-analysis of the deposited data

How the results depend on the processing

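The downstream share over both strands stayed above 50% under each alternative listed here, but that of a single strand did not. With gaps of 50 to 1000 bp it was 45.4% on the + strand. With the Jmjd2a list moved in steps of 10 bp it was 48.7% on the + strand at -20 bp and 33.3% at -100 bp, and 49.0% on the − strand at 130 bp and 44.4% at 150 bp. With only gaps of 50 to 1000 bp, 792 pairs met the rule, the downstream share was 60.0% and an intron lay under 60.0% of their Jmjd2a peaks, against 66.1% of all members. With all overlapping pairs, several partners included, 1732 of 5776 met it, the downstream share was 62.4% and the intron share 61.7%. With only the wider 50% of each list, 293 of 2126 pairs met it (13.8%) and the median Jmjd2a width was 858 bp, since narrow peaks are left out by construction. Requiring 50% of the shorter peak to be shared left 1127 members, a limit of 500 bp 1097, and leaving out Jmjd2a peaks over another RefSeq start 1097, with downstream shares of 68.8%, 67.9% and 67.7%. Leaving out pairs whose rows name different starts, or that have listed co-bound starts of both strands near, gave 64.9%. No paired analysis was possible because the peak lists have no column per library or replicate. No depth is known, so a gap between a Jmjd2a peak and a start is a gap between calls, and signal below the unknown threshold cannot be told apart from its absence.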
